A study of Mus musculus with 12 samples.

Results

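The type 17 program genes followed here are the cytokine gene Il17a, the receptor genes Il23r, Il1r1 and Ccr6, the kinase gene Blk, the paired membrane protein genes Tmem176a and Tmem176b, the scavenger receptor gene Cd163l1 and the protease inhibitor gene Serpinb1a. They were taken by name, as 9 of the 32285 genes counted, and their levels were described in γδ, CD4 and CD8 T cells, in T cells with a TRAV11-TRAJ18 receptor, and in the 6 pools of mouse brain cells. T cells were sorted as CD4+, CD8+ or γδ+ from half-brains of perfused female mice aged 9 months, and each pool was read out by droplet 5′ RNA sequencing and by sequencing of T cell receptors, per the labels. The pools were 5XFAD-1 (4 mice), 5XFAD-2 (3 mice), PS-5X (4 mice), PS19 (4 mice), WT-1 (10 mice) and WT-2 (8 mice). Animals were pooled before loading, so a pool is 1 sample and the spread between mice was not measured.

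The 5XFAD mice are a congenic C57BL6 line that overproduces amyloid from mutant human transgenes in neurons. The PS19 mice, on B6C3F1/J, carry mutant human tau (MAPT) under the mouse prion protein promoter. The PS-5X mice are bigenic, PS19+/0 with 5XFAD+/0, and carry both. All transgenes were hemizygous, and the WT mice were strain-matched littermates from crosses of both lines, so all pools come from 1 mixed colony. The question asked of the genotypes was whether T cell RNA differs in brains with amyloid (5XFAD-1, 5XFAD-2, PS-5X) from those without (PS19, WT-1, WT-2), and in brains with tau (PS19, PS-5X) from those without.

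Type 17 lymphocytes are named for the cytokine IL-17A, which acts on epithelial, stromal and glial cells and draws in neutrophils. They carry receptors through which IL-23 and IL-1 drive its release. In mice much of the early IL-17A comes from γδ T cells that leave the thymus already committed, and cells with the Vγ6 and Vδ4 receptor segments settle in the meninges and other tissues. CD4 cells take on the same program later, as Th17 cells, and innate-like αβ T cells with an invariant receptor chain form further subsets.

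Cells were placed in classes by receptor and coreceptor readouts only, none of them a gene followed here. A γδ T cell had no αβ receptor contig, at least 1 unique molecular identifier (UMI) each of Trdc, of a γ constant gene and of Cd3, and none of Cd4 or Cd8b1. CD4 and CD8 T cells had an αβ receptor contig and UMIs of their own coreceptor only. All cells with a TRAV11-TRAJ18 receptor α chain formed a class of their own, whatever their coreceptor, and 79 of these 234 met the CD4 gate and 14 the CD8 gate. Of 17376 cells kept, 672 were γδ (by pool, 125 for 5XFAD-1, 99 for 5XFAD-2, 201 for PS-5X, 89 for PS19, 31 for WT-1 and 127 for WT-2), 2575 CD4, 10314 CD8 and 234 TRAV11-TRAJ18. Median depth per γδ cell ran from 6025 to 7782 UMIs over the pools, against 5021 to 6805 in CD4, 5728 to 7784 in CD8 and 6757 to 8163 in TRAV11-TRAJ18 cells. The γδ marker list includes Trdc and γ constant genes that the gate used. Its 1 gene outside the gate, Trdv4, had a UMI in 78.0% of γδ cells, against 0.35% of CD4 and 0.33% of CD8 cells. The 5 γδ markers summed to 3068 to 3663 UMIs per 1e6 UMIs of the summed cells (CPM) in γδ cells, against 4.91 to 26.7 in CD4 and 18.1 to 55.1 in CD8 cells. In γδ cells the neutrophil genes S100a8, S100a9 and Ly6g were at 0 UMIs. The list of 7 B and plasma cell genes summed to 51.4 to 133 CPM there, with Ms4a1 at 0 and UMIs of Cd79b in 17.6% and of Ighm in 16.2% of cells. The list of 9 microglia and macrophage genes summed to 214 to 409 CPM, of which C1qc and Lyz2 were at 0. Some receptors were seen in more than 1 pool. Of the 553 WT-1 cells with both receptor chains, 165 (29.8%) carried one also seen in another pool. In turn, 550 such cells of 5XFAD-1, 162 of PS19 and 96 of PS-5X carried receptors seen in WT-1, and PS-5X and PS19 shared 6. All these pools are of run 1 of the sequencing, and no receptor was shared with 5XFAD-2 or WT-2. The source of the sharing was not tested. Results that turn on WT-1 are given without it as well.

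The cytokine gene Il17a (chromosome 1, bases 20730905 to 20734496 in GRCm38.p6) separated the classes by orders of magnitude. In γδ T cells it stood at 2398, 2591 and 1736 CPM in 5XFAD-1, 5XFAD-2 and PS-5X, and at 724, 1529 and 731 CPM in PS19, WT-1 and WT-2. In CD4 T cells the same pools held 263, 58.4, 2.81, 0, 433 and 29.6 CPM, and in CD8 T cells no pool exceeded 8.50 CPM. Every γδ pool therefore lay above every pool of the other classes, and the CD4 pools differed most among themselves. Il17a was higher in γδ than in CD8 T cells by a log2 fold change of 10.57 ± 0.78 (SE) and higher than in CD4 T cells by 4.58 ± 0.57, with edgeR quasi-likelihood adjusted p of 5.54e-10 and 1.61e-06 over 10887 genes. A UMI of Il17a was seen in 34.2% of γδ cells (95% exact binomial interval 30.6 to 38.0%), in 1.05% of CD4 cells (0.692 to 1.52%) and in 0.204% of CD8 cells (0.126 to 0.311%). The level in CD8 cells was 0.0586% of that in γδ cells. In CD8 cells 1 cell held 26 of the 30 Il17a UMIs of WT-1, 1 cell 11 of the 15 of PS19 and 1 cell 10 of the 14 of 5XFAD-1. How much of the CD8 level is free RNA was not tested. With each cell thinned to 2000 UMIs, the γδ share ran from 18.2 to 38.0% over the pools, against 0 to 1.91% in CD4 and 0 to 0.233% in CD8 cells, so that the CD4 share was above that of CD8 cells in every pool but PS19, where it was 0. Intervals here cover counting error only.

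The receptor genes Il23r and Il1r1 followed the same order. Il23r (chromosome 6, 67422932 to 67491855), the specific chain of the IL-23 receptor, had a lowest, median and highest pool of 162, 258 and 297 CPM in γδ cells, against 0.328, 0.979 and 5.35 CPM in CD4 and 0, 0.397 and 1.06 CPM in CD8 cells. Il1r1 (chromosome 1, 40222480 to 40316201), the signalling receptor of IL-1, had 127, 181 and 257 CPM in γδ cells, against 0, 0.822 and 4.20 CPM in CD4 and 0, 0.129 and 0.588 CPM in CD8 cells. For both genes the γδ pools lay above all CD4 and CD8 pools, while the CD4 and CD8 ranges overlapped. Against CD8 cells the γδ log2 fold change was 9.10 ± 0.19 for Il23r and 9.57 ± 0.26 for Il1r1, and against CD4 cells it was 7.36 ± 0.21 and 6.67 ± 0.26 (edgeR adjusted p at most 5.17e-14).

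Ccr6 (chromosome 17, 8236041 to 8258519), the receptor of the chemokine CCL20, was the exception among the receptors. Its γδ pools held 5.46, 38.2 and 5.68 CPM in 5XFAD-1, 5XFAD-2 and PS-5X and 11.4, 34.3 and 22.3 CPM in PS19, WT-1 and WT-2, against 2.95 to 7.75 CPM in CD4 and 0.0827 to 0.920 CPM in CD8 cells. The γδ and CD4 ranges overlapped. Ccr6 was higher in γδ than in CD4 cells by 1.42 ± 0.42 on the log2 scale (edgeR adjusted p = 0.0101), and this call was lost without 5XFAD-2 (adjusted p = 0.0698) and with at least 2 UMIs required at the gate (0.0803), in a range of 1.00e-05 to 0.0803 over the alternatives. Only 76 Ccr6 UMIs were counted in γδ cells, in 6.25% of them (4.54 to 8.35%).

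The promoter windows of the cytokine and receptor genes were searched for AGGTCA or TGACCT, the same core on the 2 strands, which several nuclear receptors recognise. RefSeq windows (GRCm38.p6, 250 bases before to 50 after a start site) were on hand for 7 of the 9 genes, in 12 windows, and 3 genes had a match: Il17a, Il23r and Ccr6. Counted by window, 3 of the 12 windows of the 7 genes held it, beside 5340 (16.3%) of all 32851 promoter windows. The 3 windows with a match are printed 5′ to 3′ on the gene's strand, with the match in capitals, since these are the windows that held one. They are chr1:20730655-20730954 on the plus strand for Il17a, chr6:67491806-67492105 on the minus strand for Il23r and chr17:8235793-8236092 on the plus strand for Ccr6.
Il17a promoter: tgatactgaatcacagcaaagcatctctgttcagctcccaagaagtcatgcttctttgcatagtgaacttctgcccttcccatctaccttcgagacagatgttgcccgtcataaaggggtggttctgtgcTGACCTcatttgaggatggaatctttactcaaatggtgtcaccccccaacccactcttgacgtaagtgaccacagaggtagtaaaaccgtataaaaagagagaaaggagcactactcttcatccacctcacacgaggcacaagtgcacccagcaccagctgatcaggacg
Il23r promoter: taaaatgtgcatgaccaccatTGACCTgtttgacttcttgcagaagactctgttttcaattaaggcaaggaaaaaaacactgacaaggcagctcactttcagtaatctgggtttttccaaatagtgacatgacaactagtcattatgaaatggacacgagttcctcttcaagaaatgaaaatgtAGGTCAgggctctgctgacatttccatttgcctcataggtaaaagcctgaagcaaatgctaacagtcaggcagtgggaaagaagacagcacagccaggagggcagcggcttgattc
Ccr6 promoter: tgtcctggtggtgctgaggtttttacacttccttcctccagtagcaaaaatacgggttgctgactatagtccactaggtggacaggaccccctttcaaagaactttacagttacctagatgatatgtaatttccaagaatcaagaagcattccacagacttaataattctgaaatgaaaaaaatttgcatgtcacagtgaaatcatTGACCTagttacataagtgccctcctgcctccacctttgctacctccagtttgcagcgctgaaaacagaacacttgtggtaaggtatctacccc
The match began 120 bases before the Il17a start site, 229 and 66 bases before that of Il23r and 44 bases before that of Ccr6. Ccr6 has a further start site, whose window held no match, and neither did the 2 windows of Il1r1. A match says only that these letters are there.

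Blk (chromosome 14, 63372837 to 63417187), a Src-family kinase best known from B cells, was low in the other classes. Its lowest, median and highest γδ pool were 359, 474 and 575 CPM, against 0.255, 0.992 and 7.16 CPM in CD4 and 0, 0.370 and 1.42 CPM in CD8 cells. Cd163l1 (chromosome 7, 140197218 to 140231145), which encodes a scavenger receptor of γδ T cells, stood at 1399, 1856 and 2198 CPM in γδ cells, against 0, 0.780 and 14.3 CPM in CD4 and 1.10, 3.22 and 5.67 CPM in CD8 cells. The γδ pools of both genes lay above every CD4 and CD8 pool. The log2 fold change of γδ over CD4 cells was 8.29 ± 0.25 for Blk and 9.78 ± 0.33 for Cd163l1, and over CD8 cells 9.96 ± 0.23 and 9.10 ± 0.27 (edgeR adjusted p at most 6.94e-15). In CD4 cells the highest value of each gene came from 5XFAD-2, where 1 cell held all 12 Blk UMIs and 1 cell held 95.8% of the 24 Cd163l1 UMIs. The list of 7 B and plasma cell genes also summed highest in that pool's CD4 cells, to 2070 CPM against 150 to 208 CPM in the other pools, with none of the 7 at 0, and its part in the Blk value was not tested. Cd163l1 has a close relative on the same chromosome, 5830411N06Rik, and reads from one can be counted on the other.

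Tmem176a and Tmem176b, which encode ion channel-like proteins of intracellular membranes, were present in every class. Tmem176a had a lowest, median and highest pool of 627, 895 and 1140 CPM in γδ cells, against 15.6, 23.0 and 35.3 CPM in CD4 and 5.16, 8.29 and 13.3 CPM in CD8 cells. Tmem176b had 887, 1206 and 1281 CPM in γδ cells, against 15.7, 39.5 and 45.2 CPM in CD4 and 7.26, 11.3 and 18.2 CPM in CD8 cells. The order γδ, CD4, CD8 held for both genes, and only the CD4 and CD8 pools of Tmem176b overlapped. Tmem176a was higher in γδ than in CD4 cells by 5.14 ± 0.17 and Tmem176b by 4.97 ± 0.17 on the log2 scale (edgeR adjusted p at most 1.08e-14), and over CD8 cells the values were 6.43 ± 0.17 and 6.36 ± 0.17.

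The 2 Tmem176 genes lie head to head on chromosome 6. Tmem176a spans 48841483 to 48845364 on the plus strand and lies inside the annotated span of Tmem176b, 48833811 to 48845948 on the minus strand. Whether the counting used strand was not given in the sources used here, so the split of reads between them is uncertain. The start sites that face each other, 48841374 for Tmem176b and 48841483 for Tmem176a, are 108 bases apart, and the stretch between them is in capitals below within the Tmem176a window chr6:48841233-48841532, plus strand (RefSeq, GRCm38.p6). It is shown because both genes were higher in the same classes and face each other across these bases.
Tmem176a promoter: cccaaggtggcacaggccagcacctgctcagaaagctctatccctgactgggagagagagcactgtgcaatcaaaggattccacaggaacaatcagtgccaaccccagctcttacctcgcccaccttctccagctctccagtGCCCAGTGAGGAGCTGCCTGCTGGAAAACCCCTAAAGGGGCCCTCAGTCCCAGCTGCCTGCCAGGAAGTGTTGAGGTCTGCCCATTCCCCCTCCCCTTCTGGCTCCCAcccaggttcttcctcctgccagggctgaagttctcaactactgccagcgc
No window of either gene held AGGTCA or TGACCT, and 208 bases of this window also belong to the Tmem176b window.

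Serpinb1a (chromosome 13, 32842092 to 32853206), an inhibitor of neutrophil-type serine proteases, had a lowest, median and highest γδ pool of 236, 407 and 511 CPM, against 2.39, 14.0 and 25.7 CPM in CD4 and 3.40, 4.34 and 6.95 CPM in CD8 cells. The γδ pools lay above all others, and the CD4 and CD8 ranges overlapped. Its γδ log2 fold change was 4.75 ± 0.21 over CD4 and 6.11 ± 0.20 over CD8 cells (edgeR adjusted p at most 4.41e-13). The gene has near-identical family members, so its counts are uncertain to that extent.

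Counted together, 9 of the 9 genes were higher in γδ than in CD8 T cells, against 21% of the 10887 genes tested, and 9 of 9 were higher than in CD4 T cells, against 20.1%. Their median log2 fold change was 9.10 over CD8 cells and 5.14 over CD4 cells, where the median of all genes was -0.05 and -0.02. The comparison of CD4 with CD8 T cells used the same fit, so genes low in both could pass the low-count filter through γδ cells. Filtered on CD4 or CD8 sums alone, 6 and 5 of the 9 passed. Il23r had 21 UMIs in CD4 and 26 in CD8 cells, Il1r1 24 and 12, and Blk 21 and 27. Within that limit, 7 of 9 were higher in CD4 than in CD8 T cells, beside 13.5% of the genes tested. Il17a had the widest gap of these, 5.98 ± 0.84 on the log2 scale, followed by Ccr6 with 3.82 ± 0.48 (edgeR adjusted p = 1.79e-05 and 5.62e-06). Il1r1 was higher by 2.90 ± 0.66, and the Tmem176 genes and Serpinb1a by 1.29 to 1.39. Il23r, with 1.73 ± 0.56, passed at an adjusted p of 0.0284, and the call was lost without 5XFAD-1 (0.151), PS-5X (0.0544) or WT-1 (0.0891). Blk (1.67 ± 0.69, adjusted p = 0.0831) and Cd163l1 (-0.67 ± 0.59, adjusted p = 0.461) did not pass. The Cd163l1 value turns on 1 cell of 5XFAD-2: without that pool it was -2.70 and passed as lower in CD4 cells (adjusted p = 7.52e-04), as it did with classes from clusters (-2.24, 0.00311), in a range of 7.52e-04 to 0.815 over the alternatives.

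**Figure D1:**
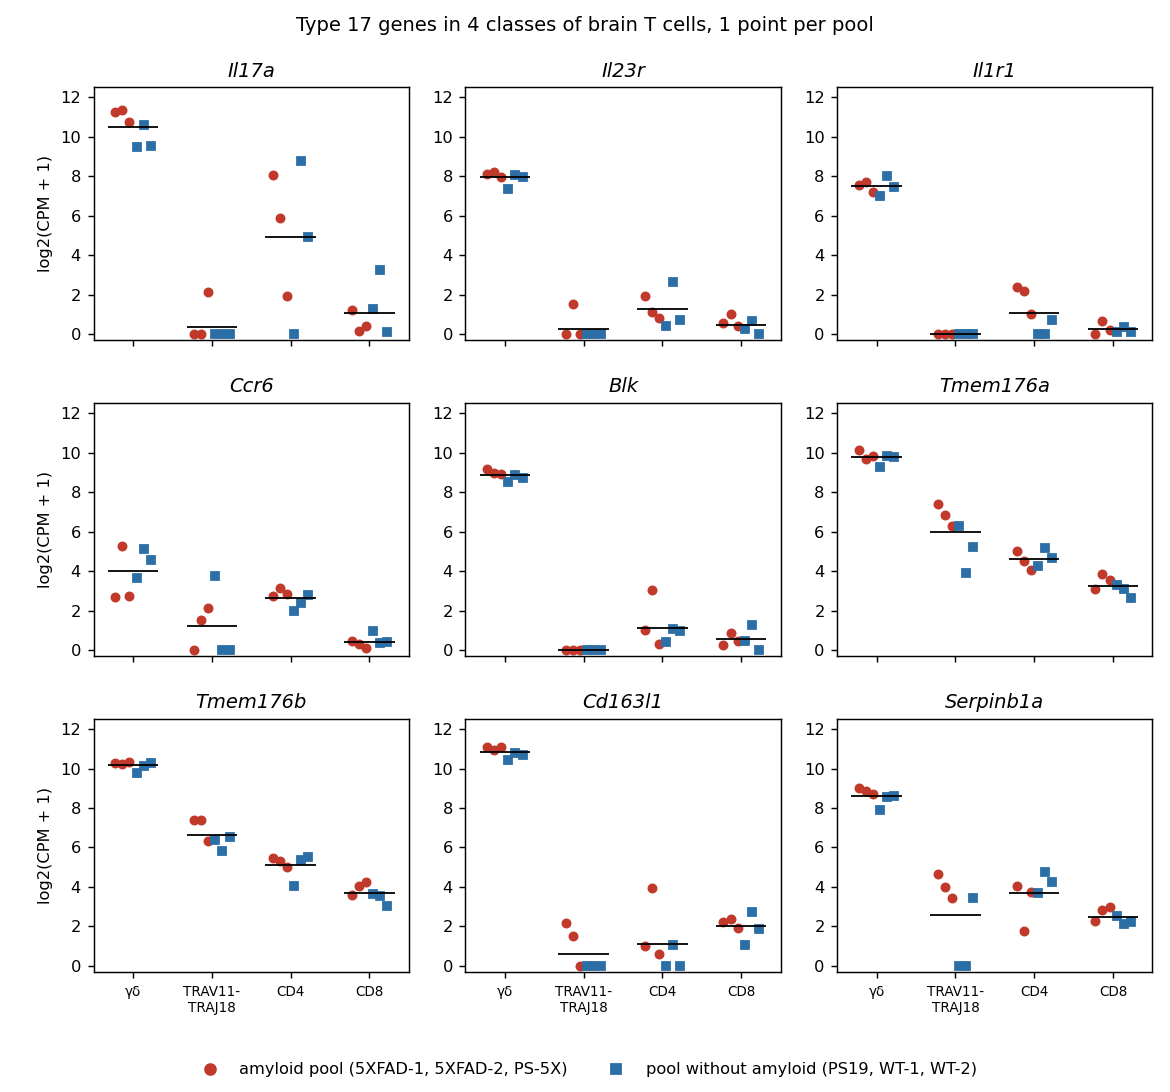
Level of each type 17 program gene as log2(CPM + 1), 1 point per pool, in γδ, TRAV11-TRAJ18, CD4 and CD8 T cells; circles are amyloid pools, squares are pools without amyloid, and the bar is the mean of the 6 log2 values. The γδ points of Cd163l1, at 1399 to 2198 CPM, sit above its CD4 points, at up to 14.3 CPM, and its CD8 points, at up to 5.67 CPM. For Ccr6 the γδ range of 5.46 to 38.2 CPM reaches into the CD4 range.

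Of the list of 34 other type 17 genes, 33 were tested against CD8 T cells, and 26 were higher and 2 lower in γδ cells, where 21% of all genes were higher and 22.4% lower, with a list median of 2.05. Among the 4 with the smallest p were Ltb4r1, a leukotriene B4 receptor, at 8.10 ± 0.16, Il2ra, the IL-2 receptor α chain, at 5.35 ± 0.11, and Sox13, a transcription factor of IL-17-producing γδ cells, at 10.72 ± 0.25 (log2 fold change ± SE, edgeR). Il6ra, an IL-6 receptor chain that Th17 cells need, was lower in γδ cells (-4.21), as was Il21r (-1.12). Against CD4 cells 24 of the 33 were higher and 4 lower, where 20.1% of all genes were higher and 20.4% lower, and the lower ones were Il6ra, Il21r, Batf and Il21. Type 1 genes mark interferon γ-producing and cytotoxic T cells. Of a list of 20, 16 were lower and 1 was higher in γδ than in CD8 T cells, beside the same 22.4% and 21% of all genes. Against CD4 T cells 9 of the 20 were lower and 6 higher, beside 20.4% and 20.1% of all genes. Cd8a is 1 of the 20, and the CD4 and CD8 gates used it, so its direction was not free of the gates.

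Within the γδ class the program divided by receptor. Of the 672 cells, 526 had a UMI of Trdv4 or Tcrg-V6, the Vδ4 and Vγ6 segments, and 146 had neither. The summed cells with these segments held 2714, 3146 and 2104 Il17a CPM in 5XFAD-1, 5XFAD-2 and PS-5X, and 1228, 1897 and 869 CPM in PS19, WT-1 and WT-2. The other γδ cells held no Il17a UMI in 5 pools, and the 101 UMIs of WT-2 were all in 1 cell, which carried Tcrg-V4. Cd163l1 ran from 2179 to 2597 CPM in the cells with the segments, against 0 to 69.8 CPM in the other γδ cells, and Il1r1 from 176 to 319 CPM against 0 to 9.39 CPM. For Cd163l1 and Il1r1 no pool of the other γδ cells came near the lowest pool of the cells with the segments.

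Of the 9 genes, 8 were higher in the Trdv4 or Tcrg-V6 cells, against 15.2% of the 5595 genes tested, and none was lower, against 13.3%. The log2 fold changes were 6.58 ± 0.40 for Il1r1, 6.38 ± 0.34 for Cd163l1, 4.90 ± 0.31 for Blk, 4.89 ± 0.66 for Il17a and 3.80 ± 0.37 for Il23r. Tmem176b, Serpinb1a and Tmem176a followed with 3.64, 3.40 and 3.23 (edgeR adjusted p at most 6.77e-06 for all 8). The Il17a value ran from 4.33 to 12.62 over the leave-one-out fits, and its highest, without WT-2, is no measure of size, since the other γδ cells then hold no Il17a UMI. Ccr6 did not pass, with 0.06 ± 0.64 (adjusted p = 0.967). It had 60 UMIs in 6.84% of the 526 cells with the segments and 16 UMIs in 4.11% of the 146 others, all 16 in cells with Tcrg-V4 and without Trdv4 or Tcrg-V6.

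The cells without these segments had a type 1 profile in place of the type 17 one. All 19 type 1 genes tested were lower in the Trdv4 or Tcrg-V6 cells, with a median log2 fold change of -4.69, led by the chemokine gene Ccl5 (-6.36 ± 0.29), the granule gene Nkg7 (-5.15 ± 0.31), Fasl (-3.39 ± 0.22) and the receptor gene Klrk1 (-2.70 ± 0.18). Of 30 other type 17 genes tested, 22 were higher and 2 lower. Cxcr6, Actn2 and Sox13 were among the 4 with the smallest p, with 2.66 ± 0.14, 4.38 ± 0.28 and 5.31 ± 0.34. The 2 lower were Il21r (-1.67) and 5830411N06Rik (-6.17), the relative of Cd163l1, which thus ran opposite to it.

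**Figure D2:**
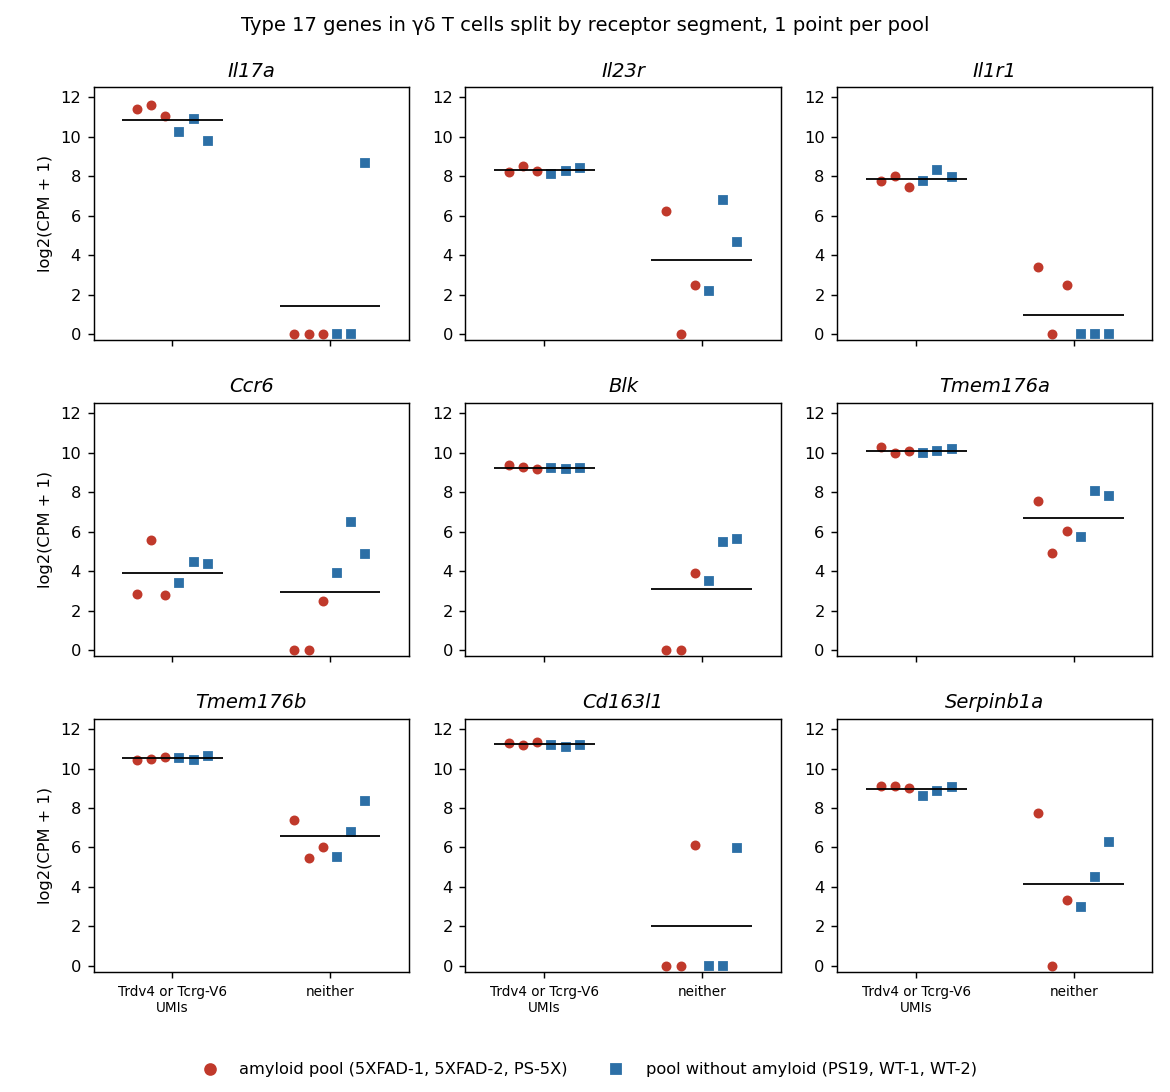
Level of each type 17 program gene as log2(CPM + 1) in γδ cells with Trdv4 or Tcrg-V6 UMIs (left) and in the other γδ cells (right), 1 point per pool, with the mean of the log2 values as a bar; circles are amyloid pools and squares pools without amyloid. Il1r1 lies at 176 to 319 CPM in the cells with the segments and at 0 to 9.39 CPM in the others, whereas the Ccr6 points intermix.

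The genes were found together in single cells. With each γδ cell thinned to 2000 UMIs, which kept 664 cells, 473 (71.2%) had UMIs of 4 or more of the 9 genes, 135 (20.3%) of none and 6 (0.904%) of exactly 1. Cells with several of the genes and cells with none thus formed separate ends with few between. By pool the share with 4 or more was 81.8, 72.7 and 74.4% for 5XFAD-1, 5XFAD-2 and PS-5X, and 51.1, 80.6 and 66.7% for PS19, WT-1 and WT-2. No gene was found in 92.5% of CD4, 96.6% of CD8 and 73.8% of TRAV11-TRAJ18 cells, and 4 or more were found in 13 of 2536 CD4 cells, 8 of 10138 CD8 cells and 0 of 233 TRAV11-TRAJ18 cells.

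**Figure D3:**
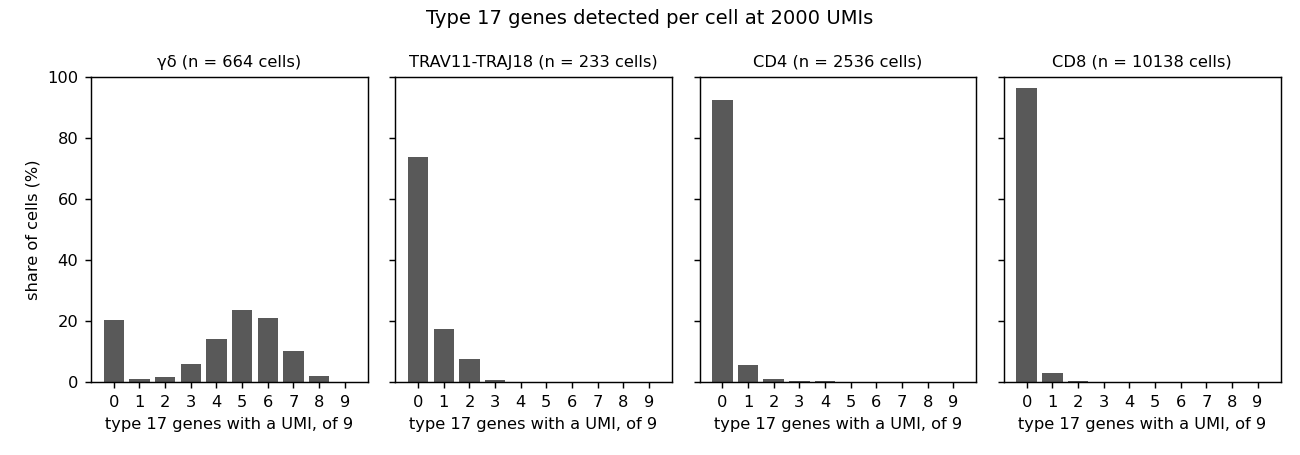
Percentage of cells by the number of type 17 program genes with a UMI, each cell thinned to 2000 UMIs, for the 4 classes. The γδ cells have 1 peak at 0 genes and another at 5 genes, with 0.904% at 1 gene, while CD4, CD8 and TRAV11-TRAJ18 cells are mostly at 0.

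In CD4 T cells Il17a came from very few cells. There were 27 with a UMI (by pool, 11 for 5XFAD-1, 2 for 5XFAD-2, 4 for PS-5X, 0 for PS19, 4 for WT-1 and 6 for WT-2), holding 1360 UMIs. The highest pool value, 433 CPM in WT-1, rested on 1 cell with 402 UMIs, which was 99.3% of that sum. These cells carried 26 different receptors, and 23 of the 27 were alone in their clone. All 14 cells with 10 or more Il17a UMIs had Tmem176a and Tmem176b, 7 had Il23r, 7 had Serpinb1a, 6 had Il1r1, 5 had Ccr6, 2 had Blk and 1 had Cd163l1. The ratio of Il17a to Cd163l1 UMIs was 0.877 in γδ, 45.3 in CD4 and 0.333 in CD8 cells, and the CD4 ratio rests on 30 Cd163l1 UMIs.

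Ccr6 had a further source in CD4 cells. The 107 CD4 cells with a UMI of Foxp3, the lineage factor of regulatory T cells, held 49.8 Ccr6 CPM and a Ccr6 UMI in 18.7% of cells, against 3.16 CPM and 1.13% in the 2468 others, at median depths of 5743 and 5555 UMIs. They held 1 Il17a UMI.

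TRAV11-TRAJ18 is the invariant α chain of type I natural killer T cells. Of the 234 contigs with it, 213 (91.0%) carried 1 of 4 junctions of 45 bases that differ only at base 12 from the 5′ end, each found in all 6 pools. They are printed because they define the class, with the differing base in capitals, from the deposited receptor contigs.
TRAV11-TRAJ18 junction 1: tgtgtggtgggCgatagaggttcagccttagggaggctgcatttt
TRAV11-TRAJ18 junction 2: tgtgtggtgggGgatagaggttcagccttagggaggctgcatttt
TRAV11-TRAJ18 junction 3: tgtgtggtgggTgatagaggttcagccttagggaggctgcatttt
TRAV11-TRAJ18 junction 4: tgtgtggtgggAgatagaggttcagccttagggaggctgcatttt
They accounted for 89, 44, 42 and 38 contigs. These cells shared Zbtb16, the factor of innate-like T cells, with γδ cells: it was higher than in CD4 T cells by 4.55 ± 0.29 on the log2 scale (edgeR, 5 pools with at least 10 cells).

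Of the type 17 program, these cells carried the Tmem176 genes and little else. Tmem176a stood at 169, 112 and 76.7 CPM in 5XFAD-1, 5XFAD-2 and PS-5X and at 76.1, 14.1 and 36.4 CPM in PS19, WT-1 and WT-2, against 15.6 to 35.3 CPM in CD4 cells. Tmem176b stood at 165, 165, 80.1, 82.5, 56.5 and 92.1 CPM in the same pools, against 15.7 to 45.2 CPM in CD4 cells, with no overlap. The lowest value, of WT-1, rests on 4 UMIs in 9 cells, and its counting interval of 15.4 to 145 CPM spans the CD4 range. WT-1 was not in the fit. Tmem176a and Tmem176b were higher than in CD4 cells by 2.00 ± 0.29 and 1.74 ± 0.26 on the log2 scale (edgeR adjusted p = 3.94e-05 and 6.12e-05), the 2 of 9 genes higher, against 5.62% of 9858 genes. The same 2 passed, with 1.96 and 1.60, when cells that met the CD4 or CD8 gate were left in those classes, which kept 141 cells, an alternative chosen after seeing the data. Il17a and Il23r had 1 UMI each in the 234 cells, and Il1r1 and Blk had 0, which allows a share of up to 1.28% of cells with a UMI. Cd163l1 had 2 UMIs. CD4 cells held 21 UMIs of Il23r, 24 of Il1r1, 21 of Blk and 30 of Cd163l1. The fit also held γδ sums, so genes low in both classes could pass its low-count filter through γδ cells. The 2 of 9 and the 5.62% hold within that limit. The Il17a difference from CD4 cells, with their 1360 UMIs, did not pass (edgeR adjusted p = 0.0572). In some alternatives 1 of the 9 genes was called as lower than in CD4 cells: with DESeq2, a gate of 2 UMIs, no gene filter, and without PS-5X or PS19.

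All 9 genes were higher in γδ than in TRAV11-TRAJ18 cells, against 11.9% of genes. Over the pooled cells, Il1r1 was at least 101-fold and Blk at least 278-fold higher, taking 3 UMIs over the group as the floor. Tmem176a and Tmem176b differed least after Ccr6, by 3.22 ± 0.22 and 3.26 ± 0.22 on the log2 scale. Ccr6 was higher by 2.76 ± 0.88 (edgeR adjusted p = 0.0269), a call lost without 5XFAD-2 (0.249), without WT-2 (0.143) and with at least 2 UMIs at the gate (0.0643).

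Among the genotypes, Il17a in γδ T cells was the 1 gene of the 9 that passed for amyloid. The pools with amyloid held 2398, 2591 and 1736 CPM (5XFAD-1, 5XFAD-2, PS-5X), a mean of 2242 ± 448 (SD, n = 3), and those without held 724, 1529 and 731 CPM (PS19, WT-1, WT-2), a mean of 994 ± 463. The ranges did not overlap. The log2 fold change was 1.23 ± 0.21 (edgeR, amyloid and tau as terms, adjusted p = 0.0379), where 9 of 8215 genes (0.11%) passed and 5 (0.0609%) were higher. Without WT-1 it was 1.56 (adjusted p = 3.09e-04), and the call was lost without WT-2 (0.97, adjusted p = 0.103), PS19 (1.23, 0.132) or PS-5X (1.23, 0.205), in a range of 7.04e-14 to 0.205 over the alternatives. By pair, 5XFAD-1 over WT-1, within run 1 of the sequencing, gave 0.65, 5XFAD-2 over WT-2, within run 2, gave 1.82, and PS-5X over PS19 gave 1.26.

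The other 8 genes did not pass for amyloid in γδ cells. Cd163l1 stood at 2198, 1955 and 2156 CPM with amyloid and 1399, 1756 and 1641 CPM without, Blk at 575, 500 and 477 against 359, 471 and 425 CPM, and Serpinb1a at 511, 460 and 421 against 236, 373 and 393 CPM. These 3 and Il17a are 4 of 9 genes whose amyloid pools all lay higher, against 4.69% of genes with such ranges, and none lay lower, against 5.59%. Their log2 fold changes were 0.42 ± 0.13 for Cd163l1 (adjusted p = 0.447), 0.33 ± 0.13 for Blk (0.673) and 0.52 ± 0.14 for Serpinb1a (0.313). Il23r, the Tmem176 genes, Il1r1 and Ccr6 had overlapping pools, with 0.34, 0.22 to 0.28, 0.06 and -0.43.

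The make-up of the γδ class moved with these values. Cells with Trdv4 or Tcrg-V6 were 88.8, 81.8 and 84.1% of γδ cells in 5XFAD-1, 5XFAD-2 and PS-5X and 58.4, 80.6 and 69.3% in PS19, WT-1 and WT-2. The list of 4 CD8 T cell genes summed to 1115, 1831 and 1962 CPM with amyloid and 4738, 1447 and 2619 CPM without, with Cd8b1 at 0, and the list of 5 NK cell genes to 199, 159 and 82.0 CPM and to 403, 47.1 and 311 CPM, with Klra8 at 0. PS19 had the lowest share of cells with the segments and the highest sum of both lists. Within the cells with the segments, an analysis chosen after the values were seen, the Il17a log2 fold change was 1.04 ± 0.21 (adjusted p = 0.108), with 2104 to 3146 CPM with amyloid and 869 to 1897 CPM without. There Cd163l1, Blk and Serpinb1a had 0.15, 0.09 and 0.26, and 0 of 9 genes passed, where 6 of 7338 genes (0.0818%) did.

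The Il17a UMIs were spread unevenly over cells. The γδ cells with 50 or more Il17a UMIs numbered 14, 11 and 15 in 5XFAD-1, 5XFAD-2 and PS-5X and 2, 2 and 2 in PS19, WT-1 and WT-2, of 99 to 201 and 31 to 127 cells. As shares of γδ cells these were 11.2, 11.1 and 7.46% with amyloid and 2.25, 6.45 and 1.57% without, so that WT-1 lay near PS-5X, and no test was made. They held 71.2 to 76.8% of the Il17a UMIs with amyloid and 27.8 to 55.5% without. The median over cells with an Il17a UMI was 17, 24 and 9 UMIs with amyloid and 15, 11 and 6 UMIs without, and these overlapped. The share of γδ cells with an Il17a UMI after thinning was 38.0, 37.4 and 28.6% with amyloid and 18.2, 29.0 and 21.4% without, so that WT-1 lay above PS-5X. The difference of 11.8 percentage points gave p = 0.2 in a two-sided exact permutation test over pools, where 3 against 3 cannot go below 0.1. Without thinning the shares were 43.2, 39.4 and 34.3% with amyloid and 19.1, 41.9 and 29.9% without, where WT-1 lay above 5XFAD-2 and PS-5X.

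**Figure D4:**
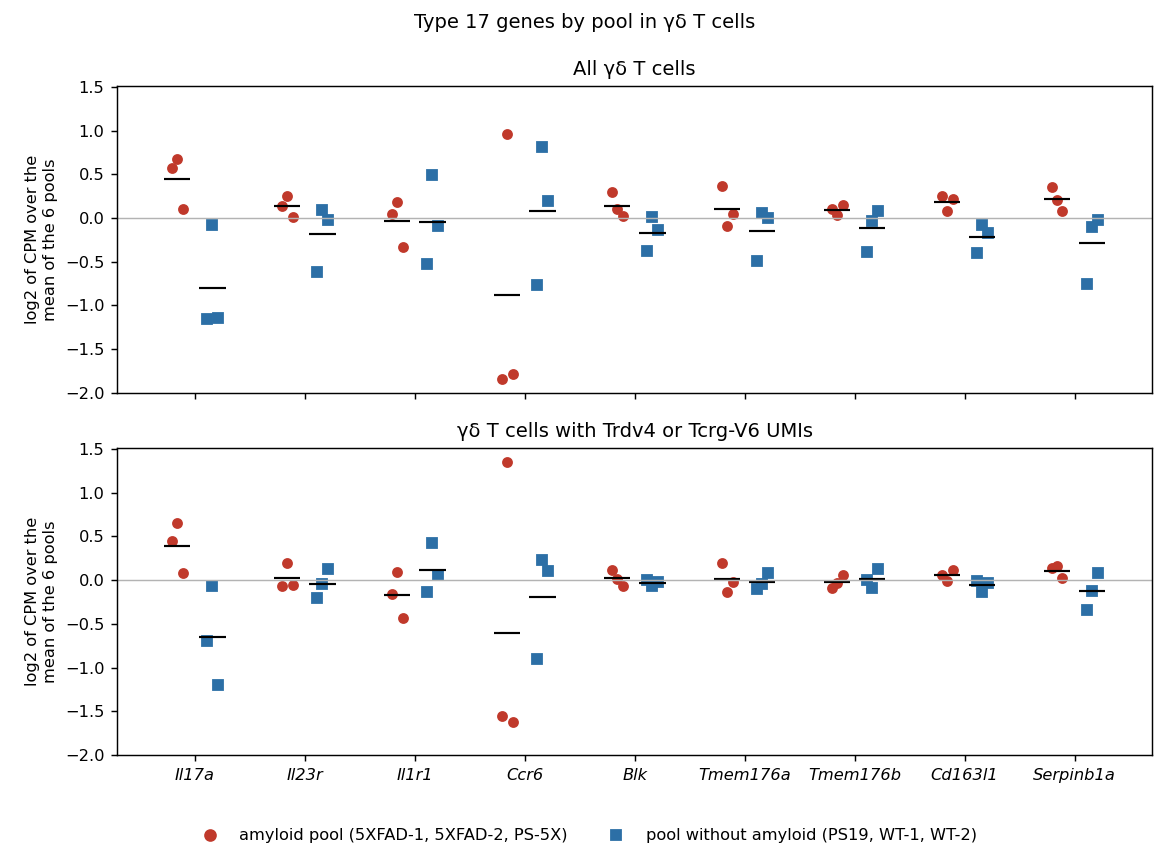
Log2 of the CPM of each type 17 program gene over the mean CPM of the 6 pools, 1 point per pool, in all γδ T cells (upper panel) and in those with Trdv4 or Tcrg-V6 UMIs (lower panel); circles are amyloid pools, squares pools without amyloid, and bars the means of each 3. The Il17a circles, at 1736 to 2591 CPM in all γδ cells, lie above the squares, at 724 to 1529 CPM, and the same holds in the lower panel, while the Blk points there nearly coincide.

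In CD4 and CD8 T cells none of the genes passed for amyloid. The edgeR test called 0 genes of 10223 in CD4 cells and 0 of 11719 in CD8 cells (0% each), with 471 and 1094 at an unadjusted p under 0.05, and DESeq2 called 3 and 64 genes, none of the type 17 set. Of the 9 genes, 6 passed the filter on low counts in CD4 cells and 5 in CD8 cells. Il1r1 in CD4 cells stood at 4.20, 3.58 and 1.02 CPM with amyloid (5XFAD-1, 5XFAD-2, PS-5X), and at 0, 0 and 0.623 CPM without (PS19, WT-1, WT-2). It was the 1 gene of the 6 whose amyloid pools all lay higher, against 5.02% of genes (3.11 ± 0.86 on the log2 scale, adjusted p = 1.00). These Il1r1 values rest on 12, 6 and 4 UMIs with amyloid and 0, 0 and 2 UMIs without. All 6 UMIs of 5XFAD-2 were in 1 cell. The counting interval of WT-1 reached 3.94 CPM, above the values of 5XFAD-2 and PS-5X. The counts therefore cannot settle whether the ranges are apart. In the edgeR fit with amyloid and tau as terms none of the genes passed for tau in any class, where 11 of 8215 genes (0.134%) passed in γδ cells, 1 of 10223 (0.00978%) in CD4 cells and 0 of 11719 (0%) in CD8 cells. In γδ cells all 9 tau coefficients were negative, between -1.51 for Ccr6 and -0.09 for Cd163l1, but 2 of the 9 were positive without PS19, with classes from clusters and in Trdv4 or Tcrg-V6 cells only, with the smallest adjusted p, 0.456, for Il1r1. Il17a in CD4 cells had the largest coefficient of tau, -6.79 ± 1.44 (edgeR adjusted p = 0.446), with 2.81 and 0 CPM in PS-5X and PS19, against 29.6 to 433 CPM in the 4 pools without tau. The value ran from -11.97 (without PS-5X) to -5.78 (without PS19) over the leave-one-out fits. Il17a was called there as lower by edgeR with the run as replicate block (-7.67 ± 0.53, adjusted p = 1.73e-04), where 60 genes passed, by DESeq2 (adjusted p = 0.0272) and with no gene filter. Whether the amyloid effect differed between γδ cells and CD4 or CD8 cells was tested for each gene in 1 fit, and 0 of 18 interactions passed (edgeR, smallest adjusted p = 0.452), where 3 (0.0267%) and 5 (0.0445%) of 11225 genes passed against CD8 and CD4 cells, so the Il17a difference is not shown to be particular to γδ cells.

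The genes most like 8 of the type 17 program genes over the 18 sums of γδ, CD4 and CD8 cells, by Pearson r of log2(CPM + 1) among 6129 candidates, were the following. Blk was most like Sox13 (r = 0.996) and Cd163l1 most like Clnk (0.991), an adaptor gene of immune receptor signalling. Tmem176a and Tmem176b shared their pair of nearest genes, the protease gene Mmp25 (0.993 and 0.993) and Il17re (0.993 and 0.994), which encodes a receptor chain for IL-17C. Il23r was most like Dap (0.992), Serpinb1a most like Plxnd1 (0.976), a semaphorin receptor gene, Il17a most like Tbc1d9b (0.954) and Ccr6 most like Crem (0.930), a cyclic AMP response factor gene. The sums share libraries and fall into 3 classes, and r across them is a description.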

How the data were processed

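The deposited matrix holds UMI counts per gene and cell barcode for the 6 pools, made with Cell Ranger 6.0.1 per the submitters' processing notes, which also list GRCm38 and mm10. Receptor tables, deposited beside it, give contigs with V and J genes, junctions and UMI counts, per the file headers. Neither strand use in counting nor equalising of depth was given in the sources used here.

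Cells needed at least 500 genes and no more than 10% mitochondrial UMIs, and the highest Scrublet scores (scanpy 1.11.5), up to 0.8% per 1000 barcodes of the pool, were removed as doublets. Kept cells numbered 2547 in 5XFAD-1, 2216 in 5XFAD-2, 5896 in PS-5X, 2355 in PS19, 829 in WT-1 and 3533 in WT-2, and 3581 of them fell in no class. Sums of UMI counts over the cells of a class in a pool went into edgeR's quasi-likelihood test (version 4.0.16, R 4.3.3) after filterByExpr and TMM scaling, with p-values adjusted by Benjamini-Hochberg over all genes tested and a threshold of 0.05. Classes and subsets were compared with pool as block. Genotype was fitted within a class with amyloid and tau as terms, so that p-values measure the spread between pools. CPM divides a gene's UMIs by the class total, without length. DESeq2 1.42.0, other size factors, no gene filter, doublets kept, a gate of 2 UMIs, classes from clusters, a replicate block, TRAV11-TRAJ18 cells in neither coreceptor class and leaving out each pool were tried. The edgeR scripts were tested on simulated data. The genes named are the 9, all given, and of a list of 34 other type 17 and a list of 20 type 1 genes the 4 called genes with the smallest p, besides genes singled out by their opposite direction after values were seen. The 9 genes, lists and tests were chosen with earlier results of these data known. A further split of CD4 cells and a few genes the rule names are not reported here.

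WT and 5XFAD share replicate numbers in the labels, and number 2 marks the pools of run 2 of the sequencing per the labels, so the numbers pair a shared run. The same-numbered pools correlated in their deviations with r = 0.106 in γδ, 0.274 in CD4 and 0.262 in CD8 sums.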

Additional observations from a re-analysis of the deposited data

Results flagged for a closer look

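Of 34 combinations of gene and class, 8 had a pool far from the other 5 by the cutoff used. The cutoff is made for normal values, and 1 UMI beside 5 pools at 0 always passes it. No rate by chance can therefore be set beside the 8. Tmem176b in γδ cells was 887 CPM in PS19, against 1135 to 1281 CPM in the other pools. In CD4 cells 5XFAD-2 held 7.16 CPM of Blk, against 0.255 to 1.07, and 14.3 CPM of Cd163l1, against 0 to 1.07. In CD8 cells WT-1 held 8.50 CPM of Il17a, against 0.0807 to 1.38, and 1 cell had 26 of its 30 UMIs; PS19 held 0.920 CPM of Ccr6, against 0.0827 to 0.370. In TRAV11-TRAJ18 cells, values of 3.34 CPM for Il17a in PS-5X, 1.87 CPM for Il23r in 5XFAD-2 and 12.7 CPM for Ccr6 in PS19 stood out from pools at 0 to 3.34 CPM. The first 2 of these are 1 UMI each.

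The cells placed in no class, which entered no comparison, carried a sizeable part of the program. They held 31.6% of all Il17a UMIs in kept cells, 33.5% of Il23r, 33.8% of Il1r1, 51.9% of Ccr6, 33.3% of Blk, 33.7% of Tmem176a, 33.6% of Tmem176b, 30.9% of Cd163l1 and 34.6% of Serpinb1a. Of their Il17a UMIs, 48.3% were in 531 cells with a γ constant gene or Trdc UMI and no receptor contig, which missed the γδ gate in another readout, and 48.3% were in 1549 cells with a receptor contig.

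Il17a stood at 2366 CPM in 18 cells with a TRAV1-TRAJ33 receptor, from 271 UMIs in 4 of the 18 cells.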

How the results depend on the processing

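Of the counts of type 17 program genes called, over the comparisons reported and their alternatives, 145 stayed within 1.5 times their reported value and 9 did not. For amyloid the count in γδ cells was 0 to 1 over the leave-one-out fits and 0 in Trdv4 or Tcrg-V6 cells only, an alternative chosen after seeing the data. With no gene filter it was 1 in CD4 and 2 in CD8 cells. For tau in CD4 cells it was 1 with DESeq2, 2 with no gene filter and 1 with the replicate block. For CD4 over CD8 cells it was 6 without the pool block. Over all genes, the block gave 5 in amyloid CD4, 13 in amyloid CD8 and 60 in tau CD4 cells, against 0, 0 and 1, and leaving out the pool block gave 1722 for CD4 over CD8, against 2780. The amyloid count of 9 in γδ cells was 14 with DESeq2 and with classes from clusters, 28 with 2 UMIs at the gate, 131 with no gene filter and 3 to 42 over leave-one-out. That of tau in γδ cells, 11, was 17 with classes from clusters, 114 with no gene filter and 7 to 22 over leave-one-out. With no gene filter the other genotype counts were 124 to 567, and with DESeq2 3 to 64. For TRAV11-TRAJ18 over CD4, 1216 became 770 without the cells that met a coreceptor gate. Leaving out a pool gave 9 to 9 genes for γδ over CD8, 8 to 9 for γδ over CD4 and over TRAV11-TRAJ18, 6 to 8 for CD4 over CD8, 2 to 3 for TRAV11-TRAJ18 over CD4, 8 to 8 for the γδ split and 0 to 0 for the other amyloid and tau counts.

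Some differences that had not passed turned direction. For amyloid in γδ cells Il1r1 was -0.23 in Trdv4 or Tcrg-V6 cells, -0.23 with classes from clusters and -0.089 to 0.21 over leave-one-out (lowest without WT-2), Blk was -0.013 with classes from clusters, Tmem176b was -0.0036 in both alternatives, and 5 of 9 genes were positive with classes from clusters, against 8. For amyloid in CD4 cells Il17a was 0.79 with DESeq2, 0.024 with the replicate block and -1.48 to 2.51 over leave-one-out (0.47 without 5XFAD-2, 2.51 without WT-1). Cd163l1 in CD4 over CD8 cells was 0.20 with doublets kept. Ccr6 in the γδ split was -0.22 with doublets kept and -0.040 to 0.32 over leave-one-out (lowest without 5XFAD-1). The amyloid difference in the share of γδ cells was -3.67 points for Il23r at 1000 UMIs, and for Il1r1 1.84 unthinned, 1.47 with doublets kept and -4.13 to 5.57 over leave-one-out; that for Il17a was 9.45 to 14.9 over leave-one-out. The cause of these changes was not tested.

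Depth limits the low genes most: Ccr6 rests on 76 UMIs in γδ cells, and WT-1 has 31 γδ cells. With 3 pools against 3 and 1 pool each of PS19 and PS-5X, small differences could not be told from the spread between pools.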

Other observations

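TRAV1-TRAJ33 is the invariant α chain of mucosal-associated invariant T cells, another innate-like lineage. Among the kept cells 18 carried it, 15 in PS-5X, with 9 placed in CD8, 2 in CD4 and 7 in no class. Of their contigs, 13 of 18, from 3 pools, held the same junction of 36 bases, read 5′ to 3′ from the deposited receptor contigs and printed because it marks the cells.
TRAV1-TRAJ33 junction: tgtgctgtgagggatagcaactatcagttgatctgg
Tmem176a ran from 584 to 1324 CPM and Tmem176b from 748 to 1023 CPM over the 3 pools with such cells, and Serpinb1a from 204 to 546 CPM. Cd163l1 was at 0 UMIs. Il17a was at 11.9 CPM in PS-5X, from 1 UMI, while its other 270 UMIs came from 5XFAD-1 and WT-1. No test was made over so few cells.

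Among the genes that passed for amyloid in γδ cells, 5830411N06Rik was lower (-5.47 ± 0.68, edgeR adjusted p = 0.00524), as was the granzyme gene Gzma (-4.26 ± 0.67, adjusted p = 0.0284). They are the only called genes of the 30 other type 17 and the 20 type 1 genes tested there. In Trdv4 or Tcrg-V6 cells only, an alternative chosen after seeing the data, 6 genes passed for amyloid. All 6 were higher, so neither of the 2 genes was called lower there. Cells with these segments were 81.8 to 88.8% of γδ cells with amyloid and 58.4 to 80.6% without. The part of this make-up in both values was not tested. Csf2, which encodes the cytokine GM-CSF, had 1.31 ± 0.34 (adjusted p = 0.268).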
